A study of Mus musculus with 9 samples.

Results

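Retinoid and carotenoid metabolism in the irradiated jejunum was followed through 10 genes, read as rows of the gene table by their Ensembl identifiers, of 31685 genes listed. They cover uptake and binding (Scarb1, Rbp2), the cleavage of carotenoids and its repressor (Bco1, Isx), storage (Lrat), the exchange of retinol and retinal (Adh1, Dhrs3, Rdh16f2) and the making and breakdown of retinoic acid (Aldh1a1, Cyp26b1). All 10 were found, and 9 of them, with 3 or more mice at an FPKM of 1 or above, were tested. FPKM, the unit of the deposited values, scales the fragments of a gene to its length and to the size of the library, so levels can be set side by side between genes. Scarb1 stayed below that limit and is given as values. RNA-seq was run on the jejunum of adult male wild-type C57BL/6J mice on day 3, with 3 untreated control mice, 3 mice given a single X-ray dose of 12 Gy to the abdomen with the rest of the body shielded (TAI, total abdominal irradiation, followed by PBS), and 3 mice given the same dose followed by intravenous immunoglobulin, pooled human IgG, at 500 mg/kg (TAI/IVIg). IVIg was first injected within an hour of the irradiation. No irradiated mouse without any injection and no unirradiated mouse with IVIg was among the groups.

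Vitamin A reaches the body through the enterocyte. Dietary carotenoids enter through scavenger receptor class B type I, the product of Scarb1, and are split into retinal by the β-carotene oxygenase encoded by Bco1. Retinal is reduced to retinol, which is carried in the cell by the retinol-binding protein encoded by Rbp2, esterified by lecithin retinol acyltransferase (Lrat) and sent out in chylomicrons. A small share is oxidised, first to retinal by alcohol and retinol dehydrogenases and then to retinoic acid by retinal dehydrogenases such as that of Aldh1a1. Retinoic acid induces the intestinal homeobox gene Isx, whose product represses Bco1 and Scarb1, and it is broken down by the cytochrome P450 enzymes of the Cyp26 family.

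The promoters of the 3 members of intake that the results turn on most, and of the 2 oxidising enzymes with the largest rises, are shown because the nuclear receptors of retinoids and fatty acids bind the hexamer AGGTCA or pairs of it. RefSeq (GRCm38.p6) gave a promoter, 250 bases before to 50 after the start it places for the gene, for 9 of the 10 members. For Bco1, Isx and Rdh16f2 that start lies within 11 bases of the start of the GENCODE gene whose span is given below. For Rbp2 it lies 4422 bases and for Adh1 16594 bases inside the span, which GENCODE extends to longer transcripts, so these windows are not at the outermost start. Capitals mark AGGTCA on either strand (TGACCT when read on the other strand). The windows are chr8:117095615-117095914 for Bco1, chr9:98490287-98490586 for Rbp2, chr10:127866226-127866525 for Rdh16f2, chr3:138277335-138277634 for Adh1 and chr8:74872924-74873223 for Isx, all on the plus strand.
Bco1: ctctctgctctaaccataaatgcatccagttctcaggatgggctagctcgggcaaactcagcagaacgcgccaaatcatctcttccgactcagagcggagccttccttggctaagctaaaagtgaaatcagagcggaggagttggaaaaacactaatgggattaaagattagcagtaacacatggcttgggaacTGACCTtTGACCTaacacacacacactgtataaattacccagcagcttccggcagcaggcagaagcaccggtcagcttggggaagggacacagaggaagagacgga
Rbp2: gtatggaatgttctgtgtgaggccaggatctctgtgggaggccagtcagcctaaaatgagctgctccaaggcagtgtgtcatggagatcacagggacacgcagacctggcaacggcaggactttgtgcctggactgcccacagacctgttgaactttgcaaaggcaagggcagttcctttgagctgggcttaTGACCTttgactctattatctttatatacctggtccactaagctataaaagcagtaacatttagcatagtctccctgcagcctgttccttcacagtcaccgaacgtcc
Rdh16f2: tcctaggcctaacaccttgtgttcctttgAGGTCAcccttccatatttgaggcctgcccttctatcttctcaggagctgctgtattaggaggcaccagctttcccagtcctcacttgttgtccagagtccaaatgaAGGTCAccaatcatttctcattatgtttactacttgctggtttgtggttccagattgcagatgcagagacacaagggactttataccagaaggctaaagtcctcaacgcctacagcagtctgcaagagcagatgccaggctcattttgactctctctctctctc
Adh1: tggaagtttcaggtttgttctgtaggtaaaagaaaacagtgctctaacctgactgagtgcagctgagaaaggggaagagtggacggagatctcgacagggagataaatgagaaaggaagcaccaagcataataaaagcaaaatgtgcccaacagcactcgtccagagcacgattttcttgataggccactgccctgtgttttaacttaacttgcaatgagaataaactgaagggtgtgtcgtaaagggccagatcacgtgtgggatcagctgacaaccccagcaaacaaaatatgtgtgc
Isx: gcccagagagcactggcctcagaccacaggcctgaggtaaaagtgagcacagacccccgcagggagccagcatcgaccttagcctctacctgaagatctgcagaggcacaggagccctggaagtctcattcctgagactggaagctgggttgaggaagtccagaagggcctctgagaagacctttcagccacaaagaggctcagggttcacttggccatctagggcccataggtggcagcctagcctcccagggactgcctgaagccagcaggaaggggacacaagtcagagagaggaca

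AGGTCA was found in the promoters of Bco1, Rbp2 and Rdh16f2, 3 of the 9 members searched, and in those of 18.1% of the 27025 genes of the RefSeq set. In Bco1 it stood as a direct repeat spaced by a single base (AGGTCANAGGTCA), from -56 to -44 relative to the start, an arrangement that 0.0481% of all genes (13 of them) held. Rbp2 held the hexamer from -58 to -53, and Rdh16f2 from -221 to -216 and from -114 to -109. TATAAA, which overlaps none of these matches, was in 4 of the 9 members (Rbp2, Bco1, Rdh16f2 and Cyp26b1) and in 15.7% of all genes. AGATAA, a letter string of GATA factors, was in 3 (Rbp2, Adh1 and Aldh1a1) and in 12.7% of all genes. In Rbp2 its match shared 1 base with a TATAAA match. TAATTA, a core of homeobox factors, was in 0 of the 9 and in 6.12% of all genes. These are matches of letters on both strands, and no binding was measured in these mice.

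The libraries held 16284386 to 18244535 reads recovered from the FPKM values, and the ranges of the groups overlapped. Over all 13056 genes tested the median difference in log2(FPKM + 1) was -0.24 in TAI against control, -0.39 in TAI/IVIg against control and -0.13 in TAI/IVIg against TAI, so that a gene at 0 on this scale lay above the median gene. The tissue label names epithelium, yet the 6 smooth muscle markers summed to 112.6 to 765.1 FPKM and the 7 fibroblast markers to 24.8 to 106.7 FPKM, so the samples were not epithelium alone. The summed FPKM of the 15 markers of mature enterocytes, the cells in which most of the 10 genes act, was 15680 to 24820 in control mice, 34330 to 54560 after TAI and 49030 to 54500 after TAI/IVIg. Fabp2 and Apoa1 gave the largest parts of this sum in each group, with means of 9030 and 4106 FPKM in control mice. Of the 15 markers 7 were higher and 2 lower in TAI, and 9 higher and 1 lower in TAI/IVIg, each against control. The same test called 8.81% of all 13056 genes higher and 26.1% lower in TAI, and 9.06% and 37.4% in TAI/IVIg. In bulk tissue a lower level can mean fewer cells of a type or less RNA in each, and these cannot be told apart here. The part of the enterocyte share in any result below was not tested. Where nothing says otherwise, differences are of log2(FPKM + 1) with their standard error (SE), and p-values are those of limma adjusted by Benjamini-Hochberg over all 13056 genes. Each p-value sets a difference between groups against the spread between mice within groups, estimated over all 3 groups together.

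**Figure D1:**
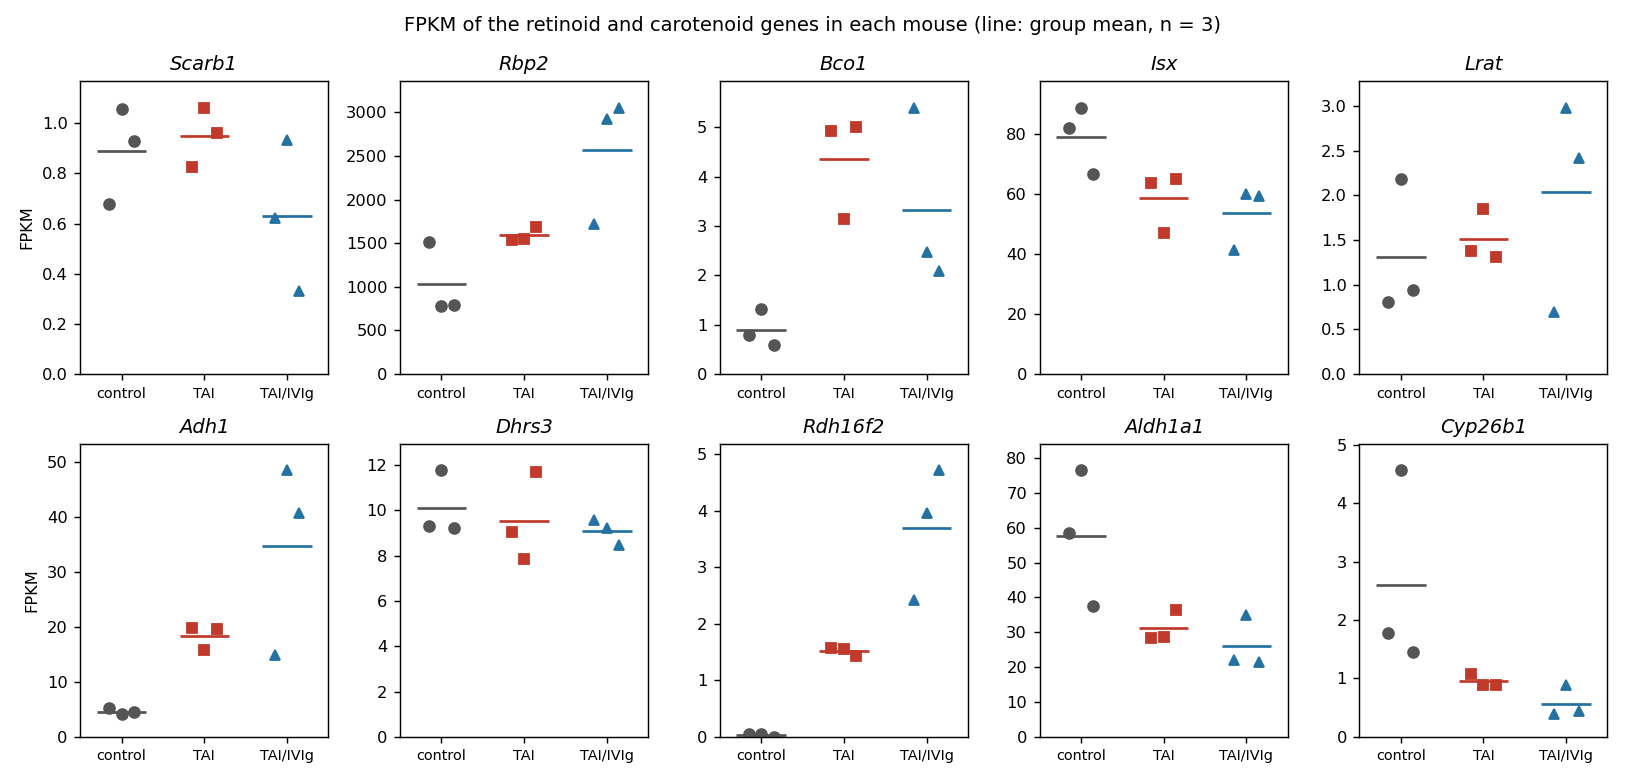
FPKM (vertical axis, linear, from 0) of each of the 10 genes in each mouse, with control as circles, TAI as squares, TAI/IVIg as triangles and a line at the group mean (n = 3). Rbp2, Bco1, Adh1 and Rdh16f2 lay higher in all irradiated mice than in any control mouse, Rbp2 by a narrow margin, and Aldh1a1, Isx and Cyp26b1 lay lower.

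In control mice Rbp2 had by far the highest level of the set, 1028 ± 419 FPKM (SD, n = 3). Isx followed at 79.2 ± 11.3 and Aldh1a1 at 57.5 ± 19.4 FPKM, and the mice of these 2 genes overlapped. Dhrs3 came next (10.1 ± 1.45 FPKM) and lay clear of both its neighbours. Adh1 (4.59 ± 0.552), Cyp26b1 (2.6 ± 1.71), Lrat (1.31 ± 0.757), Bco1 (0.898 ± 0.373) and Scarb1 (0.889 ± 0.194 FPKM) overlapped each with the next in order, and Rdh16f2 was at the end with 0.0301 ± 0.026 FPKM. In TAI/IVIg mice the order had become Rbp2, Isx, Adh1, Aldh1a1, Dhrs3, Rdh16f2, Bco1, Lrat, Scarb1 and Cyp26b1. Rdh16f2 had thus moved from the last place to the sixth and Cyp26b1 from the sixth to the last. There Isx overlapped with Adh1 and Adh1 with Aldh1a1, and from Rdh16f2 downward each gene overlapped with the next. Rbp2 and Dhrs3 lay clear of their neighbours.

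To ask how irradiation changed the set, the TAI group was compared with control. Of the 9 members tested, 3 were significantly higher (Bco1, Adh1 and Rdh16f2) and 1 was lower (Aldh1a1). Over all genes tested 8.81% were higher and 26.1% lower at the same threshold. With the replicate number as a block, 2 members were lower (Aldh1a1 and Cyp26b1), and with library medians set equal 0 were, where all genes split into 1817 higher and 1685 lower in place of 1150 and 3411. The mice of the 2 groups did not overlap for 4 members that were higher and 3 that were lower, against 15.1% and 38.0% of all genes. In TAI/IVIg against control 4 members were higher (Rbp2, Bco1, Adh1 and Rdh16f2) and 3 lower (Isx, Aldh1a1 and Cyp26b1), against 9.06% and 37.4% of all genes. With equal medians 1 member was lower (Cyp26b1), and all genes split into 2708 higher and 1992 lower in place of 1183 and 4880. The groups did not overlap for the same numbers of members as in TAI, 4 higher and 3 lower, against 11.5% and 44.3% of all genes. The median difference over the 9 members was 0.16 and 0.35 in these comparisons, above the medians of all genes. The members were chosen with earlier results of these data known. These counts and medians therefore describe the set and do not test it against all genes. Rdh16f2 passed the limit of 1 FPKM only in irradiated mice and Cyp26b1 in the 3 control mice and 1 TAI mouse, so these genes had to differ in order to be tested. Bco1 passed it in 1 of 3 control mice and in all irradiated mice. Both comparisons use the same 3 control mice, and agreement between them is not independent.

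**Figure D2:**
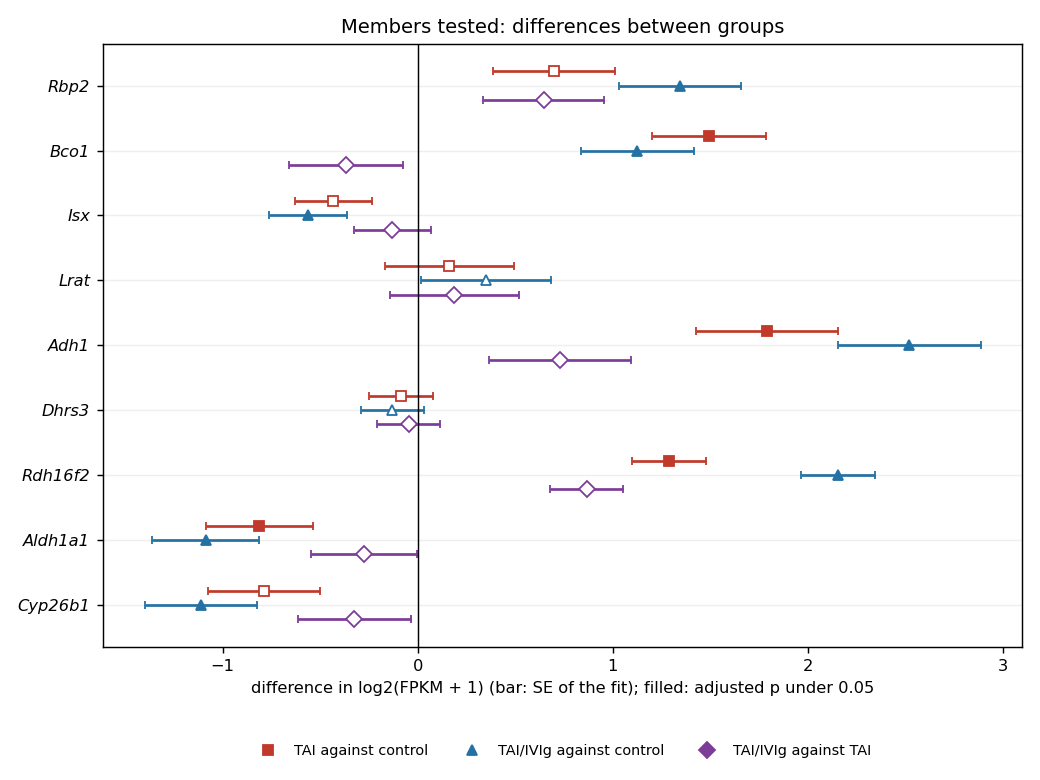
Difference in log2(FPKM + 1) between groups (horizontal axis) for the 9 members tested, with the SE of the fit as bars and filled symbols where the adjusted p is under 0.05. Squares are TAI against control, triangles TAI/IVIg against control and diamonds TAI/IVIg against TAI, none of which is filled.

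Rbp2 (ENSMUSG00000032454, chr9:98486115-98509781) encodes the cytosolic carrier that hands retinol to esterification. It stood at 1512, 781 and 791 FPKM in the control mice, 1536, 1548 and 1685 in the TAI mice and 1720, 2924 and 3054 in the TAI/IVIg mice. The groups lay in order without overlap, but control mouse 1 was only just below the lowest TAI mouse. The difference from control was 0.70 ± 0.31 in TAI, which did not pass the test (adjusted p = 0.112), and 1.34 ± 0.31 in TAI/IVIg, which did (adjusted p = 0.00827) but not with quantile normalization (0.98, adjusted p = 0.0521). Without control mouse 1 the TAI difference was 1.01 and passed (adjusted p = 0.0219). The 3 genes whose centred log2 values were closest to those of Rbp2 over the 9 mice were Naprt, Gk and Sp5, at root mean square differences of 0.221, 0.224 and 0.224, beside a spread of 0.645 for Rbp2 about its own mean.

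Scarb1 (ENSMUSG00000037936, chr5:125277087-125341094), the scavenger receptor through which carotenoids enter, was low in all mice. Its FPKM was 0.677, 1.06 and 0.931 in control, 0.824, 1.06 and 0.961 in TAI, and 0.622, 0.935 and 0.33 in TAI/IVIg. The 3 groups overlapped. Fitted without the filter on low values, the difference from control was 0.05 ± 0.17 in TAI (adjusted p = 0.898) and -0.23 ± 0.17 in TAI/IVIg (adjusted p = 0.425). These levels rest on 47 to 159 reads a mouse.

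Bco1 (ENSMUSG00000031845, chr8:117095854-117133720), the enzyme that splits β-carotene into retinal, rose in both irradiated groups. Its FPKM was 0.792, 1.31 and 0.591 in control, 4.93, 3.14 and 5 in TAI, and 5.4, 2.48 and 2.09 in TAI/IVIg mice. All irradiated mice lay above all control mice, and TAI/IVIg mouse 1 was at the level of the TAI mice while the other two lay below it. The mean was 4.85 times that of control in TAI (difference 1.49 ± 0.29, adjusted p = 0.0059) and 3.7 times in TAI/IVIg (1.13 ± 0.29, adjusted p = 0.013). These calls held in all alternatives tried, with differences of 1.38 to 1.67 and 0.80 to 1.33 when single mice were left out. Control levels rest on 26 to 59 reads a mouse. Nearest to Bco1 in pattern over the 9 mice were A830036E02Rik, Tnks1bp1 and Gm6020, at root mean square differences of 0.12, 0.152 and 0.179, with Bco1 itself at 0.716 about its mean.

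Isx (ENSMUSG00000031621, chr8:74873173-74893506), the intestinal homeobox repressor of Bco1 and Scarb1, was expressed at 81.9, 88.8 and 66.8 FPKM in control, 63.7, 47 and 65.1 in TAI, and 41.5, 59.9 and 59.5 in TAI/IVIg mice. All 6 irradiated mice lay below the lowest control mouse, in TAI by a narrow margin. The difference was -0.43 ± 0.20 in TAI, which did not pass the test (adjusted p = 0.119), and -0.56 ± 0.20 in TAI/IVIg (adjusted p = 0.0438). The call in TAI/IVIg was lost under 5 other settings. With library medians set equal, the difference was 0.03 (adjusted p = 0.951) and with quantile normalization -0.32 (adjusted p = 0.232). It stayed at -0.56 without the filter (adjusted p = 0.0888), with only the 6 mice compared (adjusted p = 0.0623) and with the replicate number as a block (adjusted p = 0.0728). It was also lost in 6 of the 9 fits that left out a mouse. 2810002D19Rik, Prodh and Gm30025 were nearest to Isx in pattern, at root mean square differences of 0.086, 0.106 and 0.134, with Isx at 0.32 about its own mean.

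A ratio of 2 genes within a mouse does not depend on the scaling of its library. Bco1 over Isx, chosen after the values were seen, was 0.00967, 0.0148 and 0.00884 in control, 0.0775, 0.0669 and 0.0768 in TAI, and 0.13, 0.0413 and 0.0351 in TAI/IVIg mice. Every irradiated mouse lay above every control mouse, and the TAI/IVIg mice fell on both sides of the TAI mice. Such a ratio shows unequal change of the genes and not which of them moved.

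**Figure D3:**
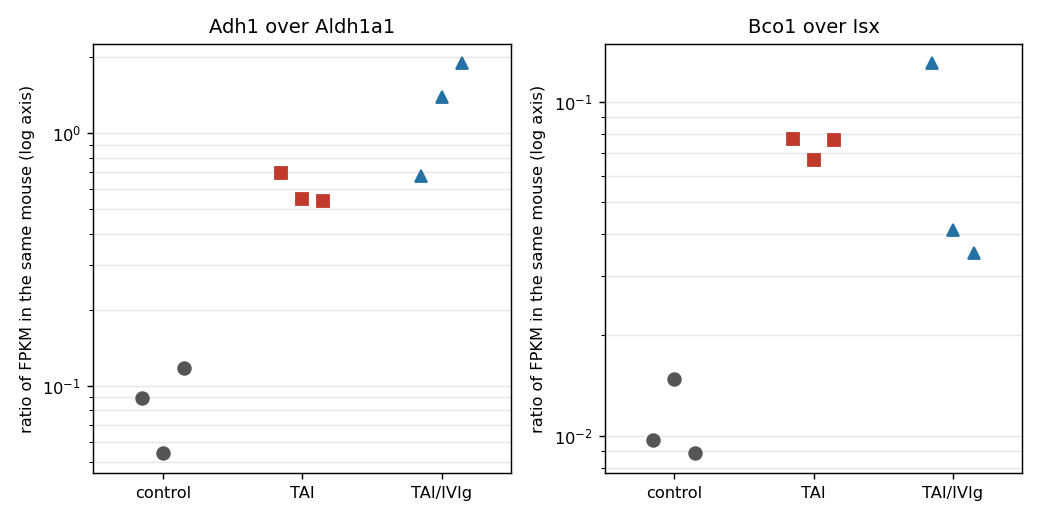
Ratio of FPKM within each mouse (vertical axis, log scale) for Adh1 over Aldh1a1 and for Bco1 over Isx, by group. All 6 irradiated mice lie above the 3 control mice in both panels, at 0.538 to 1.89 against 0.054 to 0.118 for Adh1 over Aldh1a1.

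Lrat (ENSMUSG00000028003, chr3:82892579-82903973), which stores retinol as retinyl ester, was at 0.807, 2.18 and 0.939 FPKM in control, 1.37, 1.85 and 1.31 in TAI, and 0.696, 2.98 and 2.42 in TAI/IVIg mice. All groups overlapped, and the spread was widest in TAI/IVIg mice. The difference from control was 0.16 ± 0.33 in TAI (adjusted p = 0.723) and 0.35 ± 0.33 in TAI/IVIg (adjusted p = 0.401), neither larger than the spread between mice.

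Adh1 (ENSMUSG00000074207, chr3:138260991-138290698), an alcohol dehydrogenase that oxidises retinol to retinal, rose by more than any other member on the log2(FPKM + 1) scale. Control mice were at 5.21, 4.13 and 4.45 FPKM, TAI mice at 19.8, 15.8 and 19.7, and TAI/IVIg mice at 14.9, 48.5 and 40.8. The control mice lay far below all others, and 2 of the TAI/IVIg mice lay above every TAI mouse. The mean was 7.56 times that of control in TAI/IVIg (difference 2.52 ± 0.36, adjusted p = 0.0012), and the difference was 1.79 ± 0.36 in TAI (adjusted p = 0.00721). Exons of the antisense gene Gm16559 share 136 of the 2233 exon bases of Adh1 (6.09%), and whether the counting used strand is not given in the sources used here, so reads from this stretch cannot be told apart.

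The neighbours of Adh1 on chromosome 3 did not follow it. Adh4 (chr3:138415466-138430892), a further alcohol dehydrogenase, was at 1.98, 1.52 and 2.31 FPKM in control but at 0 to 0.151 in TAI and 0.0383 to 0.365 in TAI/IVIg, a difference of -1.42 ± 0.17 (adjusted p = 0.000916) and -1.30 ± 0.17 (adjusted p = 0.000769). These levels came from 39 to 58 reads in control mice and 0 to 9 in irradiated mice, and Adh4 reached 1 FPKM in the 3 control mice alone, so it had to be lower in irradiated mice in order to be tested. Adh5 fell in TAI/IVIg, from 8.32 ± 1.48 to 5.14 ± 1.47 FPKM (adjusted p = 0.0277), with mice that overlapped with control. That call was lost with equal medians (-0.10, adjusted p = 0.565), with quantile normalization (-0.16, adjusted p = 0.325) and without the filter (adjusted p = 0.0581). It was also lost with only the 6 mice compared (adjusted p = 0.0634) and in 4 of 9 fits that left out a mouse. Adh7 was at no more than 0.0734 FPKM in any mouse.

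Rdh16f2 (ENSMUSG00000074639, chr10:127866474-127877317) belongs to the short-chain dehydrogenases that oxidise retinol. Its FPKM was 0.045, 0.045 and 0 in control, 1.57, 1.55 and 1.43 in TAI, and 2.42, 3.96 and 4.71 in TAI/IVIg mice, and the 3 groups did not overlap. These levels came from 1, 1 and 0 reads, 34, 32 and 33 reads, and 55, 85 and 100 reads. Per read of the library, Rdh16f2 was 50.2 times as frequent in TAI as in control (95% interval 13.5 to 420, exact binomial, covering counting error only) and 121 times in TAI/IVIg (33.3 to 1010), each from 2 control reads. On the log2(FPKM + 1) scale, which shrinks the change of a gene this low, the difference was 1.29 ± 0.19 (adjusted p = 0.00192) and 2.16 ± 0.19 (adjusted p = 0.000167).

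Rdh16f2 lies in a cluster of retinol dehydrogenases on chromosome 10. Of its 1216 windows of 50 bases, 122 occur in transcripts of other genes, most often of Rdh9 and Rdh19, so a part of its reads could be shared. Rdh16 (chr10:127801152-127846565) rose beside it, from 0.787, 0.41 and 0.362 FPKM in control to 6.74, 6.41 and 5.38 in TAI and 4.62, 6.24 and 12.6 in TAI/IVIg mice. The differences were 2.25 ± 0.29 (adjusted p = 0.0013) and 2.44 ± 0.29 (adjusted p = 0.000601). Rdh16 too reached 1 FPKM only in the 6 irradiated mice, so it had to be higher there in order to be tested. Rdh9 (chr10:127776386-127792697) rose from a mean of 4.18 to 8.63 and 8.93 FPKM, a difference of 0.93 ± 0.20 (adjusted p = 0.00947) and 0.97 ± 0.20 (adjusted p = 0.00527). Rdh7 (chr10:127884028-127888817), on the other strand, was higher in TAI/IVIg (1.12 ± 0.40, adjusted p = 0.045) although its mice overlapped with control. The Rdh7 call was lost without the filter (adjusted p = 0.103), with only the 6 mice compared (adjusted p = 0.0881) and in 8 of 9 fits that left out a mouse. Rdh1 and Rdh19, in the same cluster, were at no more than 0.223 FPKM in any mouse.

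Dhrs3 (ENSMUSG00000066026, chr4:144892827-144928209) encodes a reductase that turns retinal back into retinol and is itself induced by retinoic acid. It was at 9.3, 11.8 and 9.24 FPKM in control, 9.03, 7.85 and 11.7 in TAI, and 9.59, 9.21 and 8.47 in TAI/IVIg mice, and all groups overlapped. The differences of -0.09 ± 0.16 (adjusted p = 0.702) and -0.13 ± 0.16 (adjusted p = 0.518) from control were smaller than their errors. Their sign turned when the libraries were scaled to equal medians (0.22 and 0.41).

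Aldh1a1 (ENSMUSG00000053279, chr19:20492715-20643465), which oxidises retinal to retinoic acid, was lower after irradiation. Control mice were at 58.4, 76.4 and 37.7 FPKM, TAI mice at 28.5, 28.8 and 36.5, and TAI/IVIg mice at 21.9, 34.8 and 21.6. All irradiated mice lay below all control mice, but the highest TAI mouse lay just below the lowest control mouse. The control mean was 1.84 times that of TAI (difference -0.81 ± 0.27, adjusted p = 0.0463) and 2.2 times that of TAI/IVIg (-1.09 ± 0.27, adjusted p = 0.0115). The TAI call was lost without the filter (adjusted p = 0.104), with equal medians (-0.48, adjusted p = 0.26), with quantile normalization (-0.59, adjusted p = 0.114) and in 7 of 9 fits that left out a mouse. The TAI/IVIg call was lost with equal medians (-0.51, adjusted p = 0.218).

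Aldh1a7 (chr19:20692953-20727562), next to Aldh1a1 and closely alike in sequence, fell with it. Its mean was 16.6 ± 3.81 FPKM in control mice, 8.93 ± 1.78 after TAI and 8.63 ± 2.38 after TAI/IVIg, and the differences were -0.81 ± 0.23 (adjusted p = 0.0253) and -0.87 ± 0.23 (adjusted p = 0.0145), both lost with equal medians or quantile normalization. The TAI call was also lost without the filter (adjusted p = 0.0585) and in 4 of 9 fits that left out a mouse, and the TAI/IVIg call in 1. Of the 50-base windows of Aldh1a1, 3.06% occur in Aldh1a7. Aldh1a3, on a separate chromosome, went the other way from this pair. It rose in TAI, from 4.72 ± 0.463 to 10.7 ± 4.34 FPKM (adjusted p = 0.0187), and did not pass in TAI/IVIg (0.61 ± 0.25, adjusted p = 0.074). Aldh1a2, also on a separate chromosome, is made mainly outside the epithelium. It did not differ past the threshold in TAI (-0.04 ± 0.33, adjusted p = 0.938). In TAI/IVIg it fell, as the pair did, from 7.33 ± 3.29 to 3.1 ± 0.468 FPKM (-0.96 ± 0.33, adjusted p = 0.0389). The Aldh1a2 call was lost without the filter (adjusted p = 0.0893), with equal medians (-0.48, adjusted p = 0.293) and with quantile normalization (-0.46, adjusted p = 0.336). The summed fibroblast markers were also lower in TAI/IVIg, at 24.8 to 61.1 FPKM beside 72.7 to 101 in control mice. Of these 7 markers 4 were lower and 0 higher, beside 37.4% and 9.06% of all genes, and 0 were at 0 in all mice of a group. In control and in TAI, mouse 2 had both the highest Aldh1a2 (11.05 and 9.49 FPKM) and the highest sum (101 and 106.7 FPKM). In TAI/IVIg, mouse 1 had the lowest Aldh1a2 (2.7 FPKM) and the highest sum (61.1 FPKM). The part of fibroblasts in the fall of Aldh1a2 was not tested.

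Adh1 forms retinal and Aldh1a1 consumes it, and their transcripts moved apart. The ratio of Adh1 over Aldh1a1, chosen after the values were seen, was 0.0891, 0.054 and 0.118 in control, 0.694, 0.547 and 0.538 in TAI, and 0.679, 1.39 and 1.89 in TAI/IVIg mice. Control and irradiated mice were far apart, and the TAI/IVIg mice reached from the TAI level upward. No enzyme activity or retinoid was measured.

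Cyp26b1 (ENSMUSG00000063415, chr6:84571414-84593908), a cytochrome P450 that breaks down retinoic acid, had lower values in all irradiated mice than in any control mouse. It was at 1.77, 4.57 and 1.46 FPKM in control, 1.07, 0.895 and 0.881 in TAI, and 0.395, 0.88 and 0.434 in TAI/IVIg mice. The 3 groups lay in order without overlap, although the highest TAI/IVIg mouse almost reached the lowest TAI mouse. The difference was -0.79 ± 0.29 in TAI (adjusted p = 0.0608) and -1.11 ± 0.29 in TAI/IVIg (adjusted p = 0.0132). With the replicate number as a block, which ties same-numbered mice across the 3 groups, the TAI difference of -0.79 passed the test (adjusted p = 0.0444). It also passed without control mouse 3 (-1.01, adjusted p = 0.0408). Without control mouse 2, the highest, it was -0.42 and did not pass. The irradiated levels rest on 38 to 98 reads a mouse and the control levels on 135 to 432. Quantile normalization left -0.72 in TAI/IVIg (adjusted p = 0.0695). The related Cyp26a1 and Cyp26c1 were at no more than 0.124 FPKM in any mouse. The summed fibroblast markers were 87.1 to 106.7 FPKM in TAI, no lower than in control, and lower in TAI/IVIg as given above, and their part in the fall of Cyp26b1 there was not tested.

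**Figure D4:**
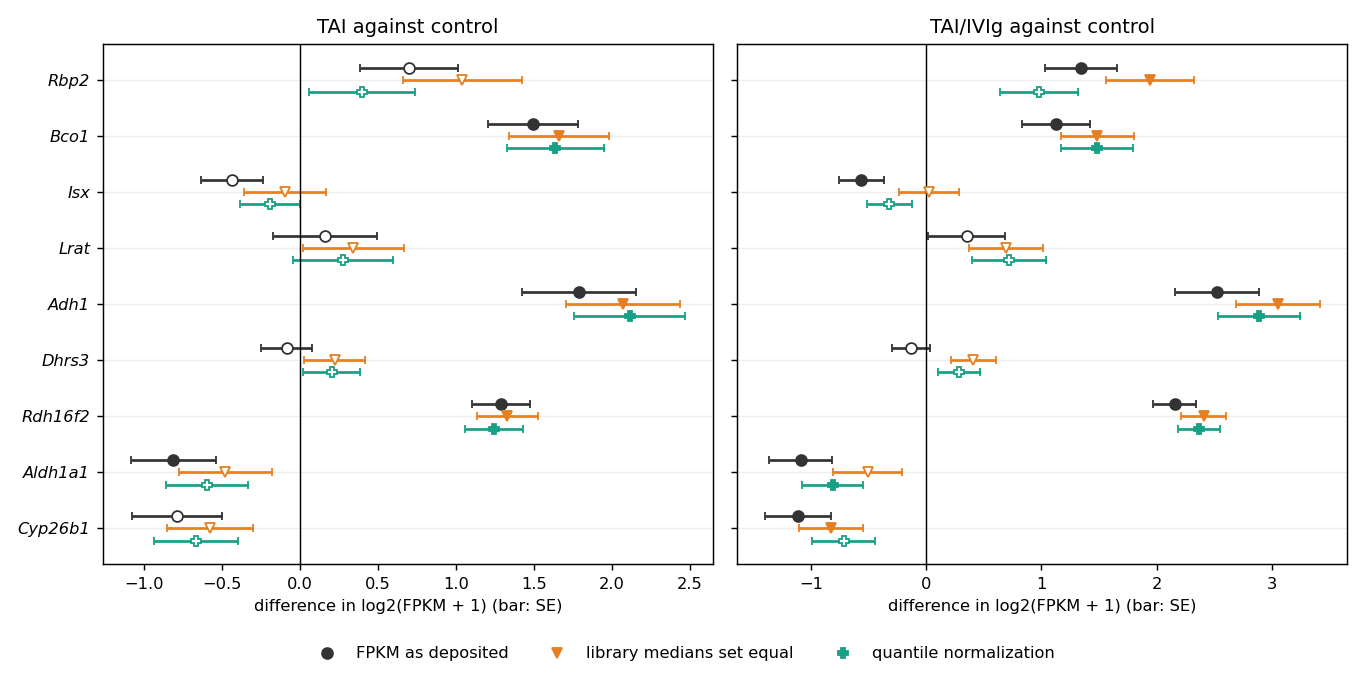
Difference from control in log2(FPKM + 1) (horizontal axis, bars are SE) of the 9 members under FPKM as deposited, library medians set equal and quantile normalization, with filled symbols where the adjusted p is under 0.05. Bco1, Adh1 and Rdh16f2 stay right of 0 and filled in both panels, Isx and Dhrs3 cross or reach 0, and Aldh1a1 and Cyp26b1 stay left of 0 with calls that depend on the scaling.

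The retinoid pathway beyond the 10 genes was read from a list of 61 further genes, of which 43 passed the filter. In the TAI group 13 of them were higher than in control and 6 were lower, and in the TAI/IVIg group 16 and 9, beside the shares of all genes given above. The median difference over the 43 genes was 0.19 and 0.22. This list too was chosen with earlier results of these data known. In all, 28 were called in at least 1 comparison, and the 16 called in both had the same sign in both, with the same control mice in each.

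Of the 11 genes tested for the uptake, secretion and binding of retinoids and lipids, 4 were higher and 1 lower in TAI, and 4 higher and 2 lower in TAI/IVIg. Among all genes 8.81% were higher and 26.1% lower in TAI, and 9.06% and 37.4% in TAI/IVIg. Cd36, a receptor for fatty acids and carotenoids, rose from 5.42 ± 1.34 FPKM in control to 23.5 ± 6.08 in TAI and 31.9 ± 6.97 in TAI/IVIg mice (adjusted p = 0.0012 and 0.000365). Apob, the core protein of chylomicrons, rose from 142 ± 41.5 to 739 ± 52.2 and 737 ± 64.3 FPKM (adjusted p = 0.000315 and 0.00016). Npc1l1, a sterol and vitamin carrier of the brush border, and Abca1, a lipid exporter, rose by less, with differences of 0.79 and 0.95 for Npc1l1 and 0.87 and 0.96 for Abca1. Mttp, which loads lipid onto Apob, had 503 ± 109 FPKM in control and did not differ past the threshold (-0.13 ± 0.20 and 0.22 ± 0.20). Rbp7, a retinoid carrier of vessels and fat, fell from 5.26 ± 4.21 to 0.542 ± 0.139 and 0.272 ± 0.101 FPKM (adjusted p = 0.00747 and 0.00269). It reached 1 FPKM in the 3 control mice alone, on 29 to 128 reads against 2 to 8 in irradiated mice, and so had to be lower there in order to be tested. The 4 endothelial markers summed to 11.1 to 18.8 FPKM in control, to 15.6 to 22.8 after TAI and to 7.54 to 14.2 after TAI/IVIg, with 0 of 4 called.

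Of the 6 genes tested that form or split retinyl esters, 3 were higher in TAI (Plb1, Pnliprp2 and Lipe) and 4 in TAI/IVIg (the same and Dgat1), with 0 lower, against 8.81% and 9.06% of all genes higher. Plb1, a brush border phospholipase that also splits retinyl esters, had the largest change of the list. It was at 8.81, 14.2 and 8.04 FPKM in control, 160, 94.2 and 158 in TAI, and 153, 69.7 and 46.7 in TAI/IVIg mice (3.60 ± 0.41, adjusted p = 0.00084, and 2.86 ± 0.41, adjusted p = 0.0012). As with Bco1, TAI/IVIg mouse 1 was the highest of its group. Pnliprp2, a lipase related to pancreatic lipase, rose from 7.23 ± 2.9 to 23.9 ± 6.59 and 16.8 ± 4.17 FPKM, and Lipe, the hormone-sensitive lipase, from 6.87 ± 0.81 to 15.7 ± 2.32 and 17.9 ± 0.985 FPKM. Dgat1, an acyltransferase that forms triglycerides and retinyl esters, rose in TAI/IVIg from 214 ± 27.8 to 307 ± 44.7 FPKM (adjusted p = 0.0467). The Dgat1 call was lost with the replicate block (adjusted p = 0.0618) and without the filter (adjusted p = 0.0984). It was also lost with only the 6 mice compared (adjusted p = 0.0634) and in 5 of 9 fits that left out a mouse. Lpl, lipoprotein lipase, did not pass (adjusted p = 0.269 and 0.661), nor did the carboxylesterase gene Ces1d (adjusted p = 0.0657 and 0.766). The 5 pancreatic acinar markers gave at most 0.349 FPKM in sum (1 of them is not in the table), and the adipocyte markers reached 163.2 FPKM in TAI mouse 3 beside 40.4 to 80.2 in the other mice.

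Carotenoid cleavage has a second enzyme, the mitochondrial Bco2, which went the other way from Bco1. It was at 57, 59.8 and 38.1 FPKM in control, 25.2, 22.3 and 37.9 in TAI, and 23.4, 42.5 and 34.9 in TAI/IVIg mice. The fall in TAI (-0.85 ± 0.28, adjusted p = 0.0421) just passed. It was lost with the replicate block (adjusted p = 0.0643), without the filter (adjusted p = 0.0957), with either other scaling and in 5 fits without a mouse. TAI/IVIg mice overlapped with control (-0.62 ± 0.28, adjusted p = 0.0957).

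Among the 15 tested genes that interconvert retinol and retinal, 4 were higher and 3 lower in TAI, beside 8.81% and 26.1% of all genes. In TAI/IVIg 6 were higher and 4 lower, beside 9.06% and 37.4%. Retsat, which saturates retinol, rose from 5.92 ± 1.83 to 12.2 ± 2.27 and 20.9 ± 8.1 FPKM (adjusted p = 0.0285 and 0.00228). Akr1b8, a reductase of retinal and other aldehydes, fell from 22.4 ± 0.983 to 8.93 ± 3.55 and 3.1 ± 2.11 FPKM (-1.30 ± 0.35, adjusted p = 0.0201, and -2.63 ± 0.35, adjusted p = 0.000857). Dhrs4, a retinal reductase at 24 ± 7.43 FPKM in control, did not differ past the threshold (-0.10 ± 0.21 and 0.25 ± 0.21), but was higher in TAI/IVIg with equal medians (0.83, adjusted p = 0.0158).

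**Figure D5:**
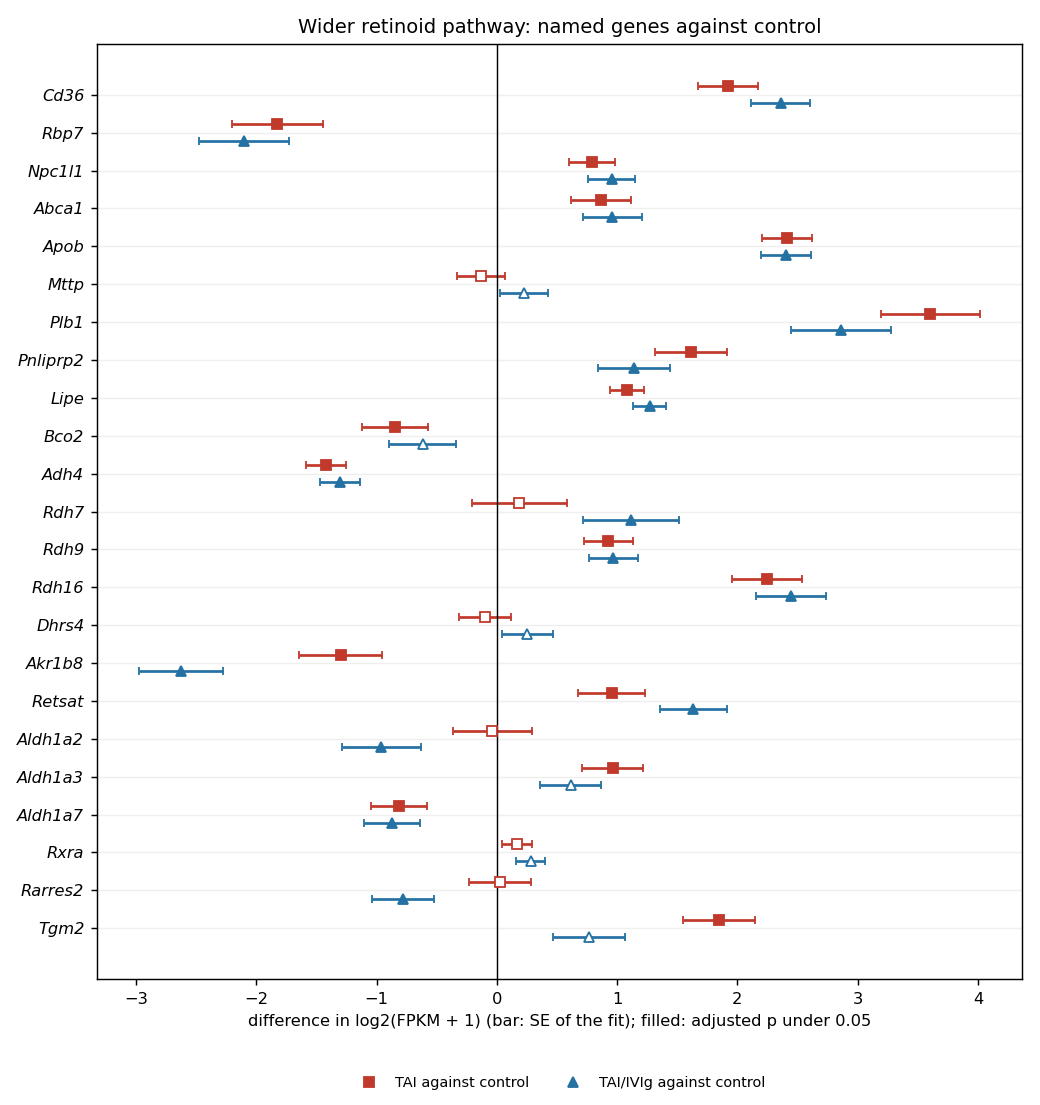
Difference from control in log2(FPKM + 1) (horizontal axis, bars are SE) for the 20 genes of the wider list with the largest called changes and the 3 never called with the highest control level, squares for TAI and triangles for TAI/IVIg, filled where the adjusted p is under 0.05. Plb1, Apob, Rdh16 and Cd36 lie furthest to the right, and Akr1b8 and Rbp7 furthest to the left.

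Receptors and responsive genes moved unevenly. Of 4 nuclear receptors tested, 0 were called in TAI, beside 8.81% of all genes higher and 26.1% lower. In TAI/IVIg 1, the retinoic acid receptor gene Rara, was higher (0.39 ± 0.14, adjusted p = 0.047) and 0 were lower. Over all genes 9.06% were higher and 37.4% lower there. The Rara call was lost with the replicate block (adjusted p = 0.0642) and without the filter (adjusted p = 0.0782). It was also lost with only the 6 mice compared (adjusted p = 0.105), with limma voom (adjusted p = 0.0501) and in 8 of 9 fits that left out a mouse. Rxra, the common partner receptor, was at 15.2 ± 0.699 FPKM in control and 17.2 ± 0.606 and 18.7 ± 2.39 in the irradiated groups, which did not pass the test as deposited (0.17 ± 0.12, adjusted p = 0.313, and 0.28 ± 0.12, adjusted p = 0.0901) and did pass in TAI/IVIg with equal medians (0.84, adjusted p = 0.00683). Tgm2, a transglutaminase that retinoic acid induces in many cells, was at 14.8, 18.5 and 17.4 FPKM in control, 72, 68.6 and 51 in TAI, and 47.9, 18.5 and 28.1 in TAI/IVIg mice. It rose in TAI (1.85 ± 0.30, adjusted p = 0.00277) and did not pass in TAI/IVIg (0.77 ± 0.30, adjusted p = 0.0615). Rarres2, the chemerin gene, fell in TAI/IVIg (-0.78 ± 0.26, adjusted p = 0.0353), with mice that overlapped with control. That call was lost with equal medians (-0.27, adjusted p = 0.42), with quantile normalization (-0.30, adjusted p = 0.351) and without the filter (adjusted p = 0.0788). It was also lost with the replicate block (adjusted p = 0.0554) and with only the 6 mice compared (adjusted p = 0.0676). The difference was -0.51 without TAI/IVIg mouse 3. Rarres1, the remaining responsive gene tested, rose in TAI/IVIg from 0.98 ± 0.223 to 1.86 ± 0.395 FPKM without overlap (0.53 ± 0.18, adjusted p = 0.0387). It did not pass in TAI (0.47 ± 0.18, adjusted p = 0.0683). The Rarres1 call was not followed through the alternatives. Several calls of the wider list were close to the threshold. Leaving out single mice also ended the TAI calls of Akr1b8, Retsat, Aldh1a3, Abca1 and Npc1l1 (adjusted p up to 0.0652, 0.0902, 0.0719, 0.0815 and 0.0632) and the TAI/IVIg calls of Aldh1a2 and Rarres2 (up to 0.119 and 0.113). The TAI calls of Akr1b8, Retsat and Abca1 were lost without the filter too (adjusted p = 0.0521, 0.0683 and 0.0598).

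To ask whether IVIg changed the set after irradiation, the TAI/IVIg group was compared with the TAI group. None of the 9 members passed (0 higher and 0 lower), nor did any of the 43 wider genes or of all genes tested (0% in each direction). At an unadjusted p under 0.05, 1.64% of all genes were higher and 11.2% lower, and of the members only Rdh16f2 was among them (0.87 ± 0.19, unadjusted p = 0.00128, adjusted p = 0.353), a gene known for this difference when it entered the set. With limma voom on the recovered reads the count past the adjusted threshold over all genes was also 0. Mice of the 2 groups did not overlap for 2 members that were higher in TAI/IVIg (Rbp2 and Rdh16f2) and 1 that was lower (Cyp26b1), against 3.09% and 16.1% of all genes. Rbp2 differed by 0.65 ± 0.31 (adjusted p = 0.409), Adh1 by 0.73 ± 0.36 (adjusted p = 0.415) and Bco1 by -0.37 ± 0.29 (adjusted p = 0.574). The remaining members differed by -0.32 to 0.19, with adjusted p of 0.618 to 0.912.

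The TAI/IVIg mice differed among themselves. Mouse 1 had the lowest Rbp2, Adh1, Rdh16f2, Lrat and Isx and the highest Bco1 of the 3. Its Adh1 (14.9 FPKM) and Isx lay below every TAI mouse, whereas the other two mice had Adh1 at 48.5 and 40.8 FPKM. In the same mouse Fabp1, the liver-type fatty acid-binding protein and an enterocyte marker, was at 1477 FPKM beside 4870 and 4182 in the other two and 977 to 1536 in TAI. Sis, Lct, Slc5a1, Slc2a5, Treh and Cdx2 were also lowest in mouse 1 of this group, with Lct at 216 FPKM beside 341 and 343. Fabp2 (23640 FPKM beside 19670 and 18560), Anpep, Krt20 and Cdx1 were highest there. For the remaining enterocyte markers mouse 1 lay between the others. The largest parts of the sum of the 15 enterocyte markers came from Fabp2 and Apoa1. This sum was highest in mouse 1, at 54500 FPKM beside 49030 and 51920. Without this mouse the difference between TAI/IVIg and TAI was 1.24 ± 0.16 for Adh1 and 1.08 ± 0.14 for Rdh16f2 (adjusted p = 0.0651 for both), 0.91 ± 0.30 for Rbp2 (adjusted p = 0.146) and -0.69 ± 0.23 for Bco1 (adjusted p = 0.148), none past the threshold. The labels give no reason to set this mouse apart, and all values above include it.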

How the data were processed

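Jejunal RNA of 9 mice, 3 per group, was sequenced by a company for the authors. The labels gave each mouse its group and its replicate number. The submitters' processing notes name FastQC, Trimmomatic, STAR, featureCounts and DESeq2, without versions, and the builds mm10 and GRCm38. The authors deposited FPKM values per gene and mouse without pooling, and 0 columns of values were left unused. Symbols were matched by Ensembl identifier for 31146 of 31685 genes. Each FPKM value was a whole number of reads times a step of its gene and library (100% of the values within 0.01 reads), and for 96.5% of genes the implied length was the union of exons in GENCODE M21, which gave the reads per gene and 16284386 to 18244535 reads per library (median 17312367). Positions are from GENCODE M21 (GRCm38).

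In R 4.3.3, log2(FPKM + 1) was fitted with limma 3.58.1 (trended empirical Bayes, two-sided), with a term per group and all 9 mice, for genes that reached 1 FPKM in 3 or more mice. P-values were adjusted by Benjamini-Hochberg within each comparison, with a threshold of 0.05. The steps were tested on simulated data. Alternatives were a pseudocount of 0.1, no filter, quantile normalization, library medians set equal, a replicate block, only the 6 mice compared, limma voom on the recovered reads, and each mouse left out in turn. Within groups log2(FPKM + 1) correlated at 0.938 to 0.984. What a shared replicate number means is not stated. For mice sharing a number, the deviations from their own group's mean had correlations of 0.271, 0.241 and 0.308 (control with TAI) and of -0.296 to 0.201 (TAI/IVIg with either). Mice of different numbers were not compared, so these values cannot decide whether the numbers pair mice.

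The members and all lists were chosen with earlier results of these data known. Named were all members, their paralogs, up to 20 called genes of the wider list with the largest change, the 3 never called with the highest control FPKM, and the 3 genes nearest in pattern to Rbp2, Bco1 and Isx. Dgat1, Lpl, Ces1d, Rara and Rarres1 were added after their values were seen. The direction of Rdh16f2 in TAI/IVIg against TAI is thus not independent support.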

Additional observations from a re-analysis of the deposited data

How the results depend on the processing

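The rises of Bco1, Adh1 and Rdh16f2 in both irradiated groups kept their direction and their call under all alternatives. With library medians set equal the split over all genes in TAI against control was 1685 lower and 1817 higher, in place of 3411 and 1150, and in TAI/IVIg against control 1992 and 2708, in place of 4880 and 1183. In TAI against control the members called lower numbered 0 without the filter, with equal medians and with quantile normalization, 2 with the replicate block, and 0 to 2 when single mice were left out. Wider genes called lower there numbered 3 without the filter and 3 with equal medians, and 2 to 7 without single mice, and those called higher numbered 20 with equal medians and 21 with quantile normalization. In TAI/IVIg against control 1 member and 3 wider genes were lower with equal medians, 1 and 3 with quantile normalization, and 4 to 9 wider genes without single mice. The replicate block changed the calls of Cyp26b1 in TAI (adjusted p = 0.0444), of Bco2 in TAI (0.0643) and of Isx (0.0728), Rarres2 (0.0554), Rara (0.0642) and Dgat1 (0.0618) in TAI/IVIg, and no other call against control among the members and the further genes refitted, and over all genes it gave 3 lower in TAI/IVIg against TAI. No filter gave 4 lower there. The direction turned for Dhrs3 in TAI against control (0.22 with equal medians, 0.20 with quantile normalization, -0.229 to 0.032 without single mice), in TAI/IVIg against control (0.41 and 0.29) and in TAI/IVIg against TAI (0.186 and 0.081, -0.163 to 0.098 without single mice), for Isx in TAI/IVIg against control (0.026 with equal medians) and against TAI (0.12 with equal medians, -0.278 to 0.043 without single mice), for Lrat in TAI/IVIg against TAI (-0.054 to 0.561 without single mice), and in TAI against control for Mttp (0.21 with equal medians, -0.306 to 0.013 without single mice) and Dhrs4 (0.23 with equal medians, 0.14 with quantile normalization, -0.256 to 0.131 without single mice). Of the remaining checks of single genes, 975 kept direction and side of the threshold, 119 lost and 8 gained a call. Equal medians and quantile normalization remove the shift of the median gene by construction, and the other causes were not tested. Genes with few reads, such as Rdh16f2 in control and Adh4 and Rbp7 in irradiated mice, are limited by depth.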
